A study of Mus musculus with 6 samples.

Results

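NMDA receptors are glutamate-gated channels of excitatory synapses, and their subunits are encoded by Grin1, Grin2a, Grin2b, Grin2c, Grin2d, Grin3a and Grin3b. These 7 genes were taken by symbol from the 23282 entries of each deposited table, as the members of a family and not by a threshold on their values. QuantSeq 3′ mRNA-Seq, which reads the end of polyadenylated transcripts, was run on 1 forebrain hemisphere from each of 6 male C57BL/6J mice aged 8 to 10 weeks, with the olfactory bulbs and the cerebellum taken off. The 3 mice labelled WAS (water avoidance stress) had stood for 1 h on a small platform surrounded by water, and the 3 mice labelled control had stood for the same time on that platform in a container without water. All mice were killed straight after the hour, and no allele or drug was part of the design. The comparison asks whether the transcripts of the receptor subunits differ after acute psychological stress.

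The count column inside each table is headed by a name starting with WC where the label is WAS and by one starting with WS where the label is control, and no source used here defines these names. Groups follow the sample labels throughout, and each direction below would turn round if the labels were exchanged. Library totals ran from 9248520 to 10067053 counts under the label WAS and from 9977945 to 10502029 under the label control. Levels are given as CPM, the count scaled to a common library total. A 3′ tag is read about once per transcript, so these levels were not divided by gene length. The whole hemisphere was sequenced in bulk, so fewer cells of a type and less RNA per cell cannot be told apart.

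An NMDA receptor is a tetramer that always holds the GluN1 subunit, encoded by Grin1, together with GluN2 or GluN3 subunits. GluN1 and GluN3 bind glycine or D-serine, and GluN2 subunits bind glutamate. The pore is blocked by magnesium at rest and passes calcium once the membrane is depolarised, which links these receptors to synaptic plasticity. In rodent forebrain the GluN2 make-up is known to move from GluN2B towards GluN2A after birth, GluN2C is best known from cerebellar granule cells and glia, GluN2D from the diencephalon and interneurons, and GluN3 subunits reduce calcium flow.

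All 4 GluN2 subunits end in a short tail that binds the PDZ domains of the Dlg scaffolds at the synapse, whereas GluN1 has alternative endings and the GluN3 subunits lack that tail. The last 30 coding bases of a representative transcript of each gene are shown for this reason, from the GENCODE M21 transcripts of GRCm38 (mm10), 5′ to 3′ on the coding strand, with the last 4 codons before the stop in capitals. Grin1 has 2 entries, since its coding sequence ends at either of 2 places.
Grin1 (959 codons): cagctgtgttcccgtCATAGGGAGAGCtga
Grin1 (943 codons): tcagatccctcggtcAGCACCGTGGTGtga
Grin2a: aaaatgcctagtattGAATCTGATGTCtaa
Grin2b: aaactttctagtattGAGTCTGATGTCtga
Grin2c: cggatctccagcctgGAATCAGAAGTGtga
Grin2d: cacttctccagcctgGAGTCCGAGGTAtga
Grin3a: caaaggacgaaccggACTTGTGAATCCtag
Grin3b: ctgctgcatgcggcgCCCGCCGAGAGCtga
Grin2a and Grin2b had 11 of the 12 capital bases in common, and the other GluN2 pairs had 8 or 9. Over the whole 30 bases, Grin2a and Grin2b matched at 25 positions and Grin2c and Grin2d at 23. Grin3a and Grin3b matched each other at only 4 of the 12 capital bases. These stretches lie at chr2:25292368-25292397 and chr2:25292060-25292089 for the 2 Grin1 transcripts, chr16:9577827-9577856 for Grin2a, chr6:135732098-135732127 for Grin2b, chr11:115249571-115249600 for Grin2c, chr7:45832780-45832809 for Grin2d and chr4:49665226-49665255 for Grin3a, all on the minus strand, and at chr10:79977075-79977104 on the plus strand for Grin3b. The longest run of bases that any 2 of the genes share in their transcripts was 34, between Grin2b and Grin2c, against reads of 75 bases.

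The 7 genes differed widely in level. Over the 6 libraries, Grin2b was highest at 466 ± 43.7 CPM (SD, n = 6), 2.09 times the 223 ± 17.0 CPM of Grin1. Grin3a followed at 36.6 ± 8.41 CPM and Grin2c at 30.4 ± 0.861 CPM. These neighbours in the order overlapped, with Grin3a above Grin2c in 4 of 6 libraries. Grin3b was next at 24.2 ± 1.94 CPM and Grin2a lay at 4.02 ± 0.896 CPM. Every other pair of neighbours kept its order in all 6 libraries without overlap of their ranges. Grin2d was at or near 0, with 1 count in WAS replicate 1, 1 count in control replicate 1 and 0 counts in the other 4 libraries, so the 3 counts that a count of 0 allows put its level below 0.286 to 0.324 CPM depending on the library. No fold is given for Grin2d, because both groups were at or under that floor.

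**Figure D1:**
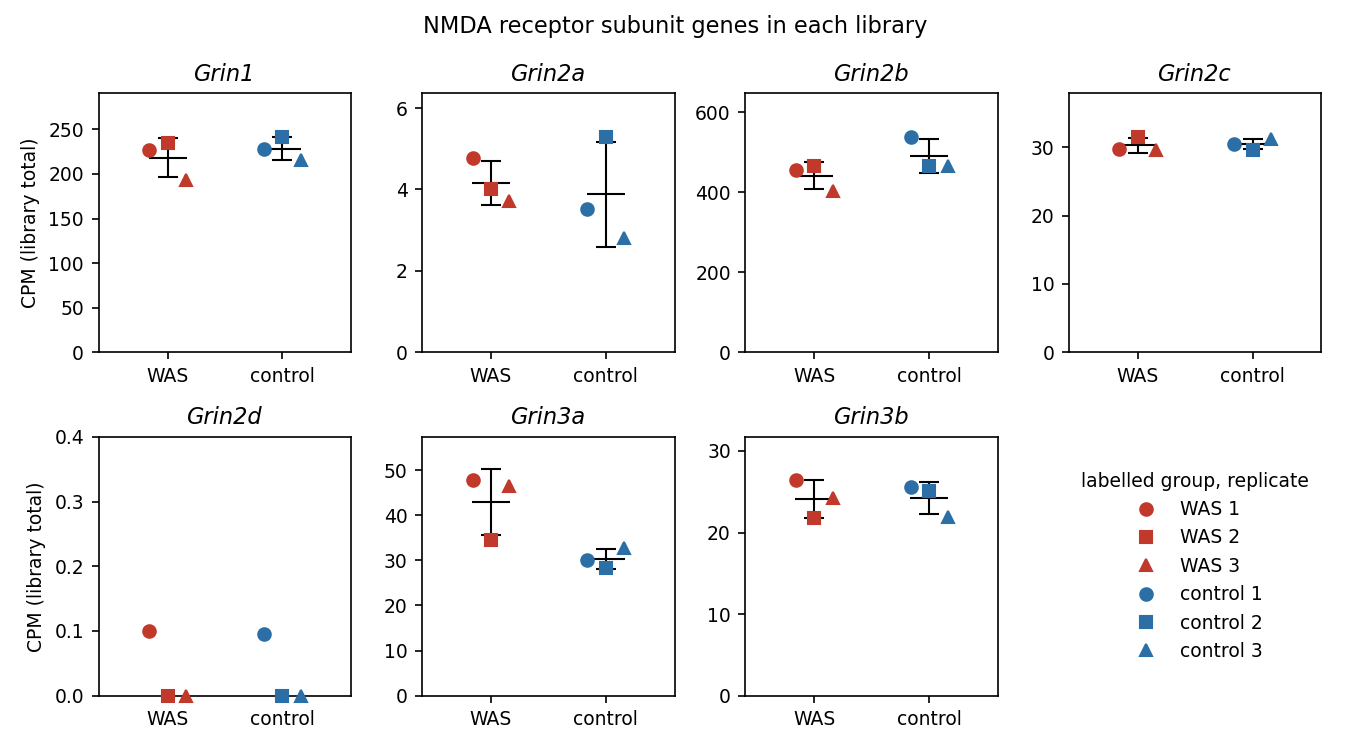
Level of each NMDA receptor subunit gene in CPM (counts scaled to the library total, linear axis from 0) in the 3 libraries labelled WAS (red) and the 3 labelled control (blue), with marker shapes for replicates 1, 2 and 3 and black bars for the mean ± SD of a group (not drawn for Grin2d, which had at most 1 count). Grin3a is the member whose libraries labelled WAS all lie above those labelled control, with WAS replicate 2 at 34.5 CPM close to the highest control library at 32.8 CPM.

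QuantSeq reads come from transcript ends, so the annotated ends of the members were compared. Grin2a (chr16:9567898-9995560, minus strand) has 3 coding transcripts that end up to 9929 bases apart, and only the outermost, with a last exon of 11729 bases, has the poly(A) signal AATAAA on the transcript strand in its last 50 bases. Grin2b (chr6:135713233-136173511, minus strand) has 3 ends up to 156470 bases apart, and 2 of these have AATAAA. Grin2c (chr11:115249169-115267243, minus strand) has 1 end with the variant ATTAAA, and Grin3a (chr4:49661611-49845744, minus strand) has 1 end with AATAAA. Grin2d (chr7:45831883-45878378, minus strand) has AATAAA at 1 of its 2 ends, Grin3b (chr10:79970715-79977190, plus strand) has ATTAAA at 1 of 2, and the single end of Grin1 (chr2:25291181-25319187, minus strand) has neither. Among 47808 coding transcripts in the annotation, 49.6% have AATAAA and 14.4% ATTAAA in this window. The annotation the authors counted with is not given in the sources used here, so which ends entered the counts is unknown, and the part of transcript ends in the low level of Grin2a was not tested.

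Grin1, which codes for the obligatory GluN1 subunit, was counted 2280, 2170 and 1933 times in WAS replicates 1, 2 and 3 and 2389, 2511 and 2151 times in the control replicates. On the CPM scale these were 226, 235 and 194 against 227, 242 and 216, and the groups overlapped. The group means were 218 ± 21.7 and 228 ± 13.2 CPM (SD, n = 3 each). The fitted log2 fold change, labelled WAS relative to labelled control, was -0.10 with a 95% interval from -0.31 to 0.10 (adjusted p = 0.892, edgeR quasi-likelihood test, Benjamini-Hochberg). With 1 library left out it ran from -0.16, without WAS replicate 2, to -0.024, without WAS replicate 3.

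The counts of Grin1 cannot be separated from those of Grin1os, a gene on the opposite strand that shares 1307 exonic bases with it. Grin1os had 1796, 1678 and 1496 counts in the libraries labelled WAS against 1830, 1985 and 1640 in those labelled control, between 0.762 and 0.791 times the Grin1 count in each library. Lrrc26, which ends 1 base beyond the Grin1 end, had 0.224 to 0.306 times the Grin1 count. The strand setting of the authors' counting is not given in the sources used here, so reads of Grin1 and of Grin1os cannot be told apart.

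Grin2b, which codes for the glutamate-binding GluN2B subunit, had 4598, 4297 and 4012 counts in the libraries labelled WAS against 5662, 4834 and 4654 in those labelled control. The levels were 457, 465 and 402 CPM against 539, 466 and 466 CPM. The 3 libraries labelled WAS all lay below all 3 labelled control, but WAS replicate 2 at 464.61 CPM was only just under control replicate 2 at 465.68 CPM. With group means of 441 ± 34.2 and 490 ± 42.2 CPM (SD, n = 3 each), the log2 fold change was -0.19 with an interval from -0.39 to 0.0081 (unadjusted p = 0.0586, adjusted p = 0.702, edgeR quasi-likelihood test, Benjamini-Hochberg). The summed level of 7 genes that mark excitatory neurons of the cortex was 767, 781 and 728 CPM in the libraries labelled WAS against 896, 947 and 832 CPM in those labelled control, with 7 of 7 log2 fold changes below 0 and 3 of 7 at an unadjusted p under 0.05 (3.40% of all genes were called lower), and the part of this in the Grin2b value was not tested.

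Grin2a, which codes for the GluN2A subunit of the adult forebrain, was covered by 48, 37 and 37 counts in the libraries labelled WAS against 37, 55 and 28 in those labelled control. The groups overlapped at 4.16 ± 0.548 and 3.88 ± 1.28 CPM (SD, n = 3 each). Within groups Grin2a varied with a coefficient of variation of 24.6%, against 15.7% from counting error alone. The log2 fold change of 0.064 had an interval from -0.60 to 0.73, which includes differences of 1.5 times in either direction. Leaving out WAS replicate 1, control replicate 1 or control replicate 3 turned its sign, to -0.049, -0.0097 and -0.11.

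Grin2c, which codes for GluN2C, was the steadiest of the 6 members with more than 1 count, with 299, 292 and 295 counts in the libraries labelled WAS against 320, 308 and 311 in those labelled control. Its levels of 29.7, 31.6 and 29.5 CPM overlapped the control levels of 30.5, 29.7 and 31.2 CPM. The log2 fold change was -0.045 with an interval from -0.28 to 0.19 (adjusted p = 0.968, edgeR quasi-likelihood test, Benjamini-Hochberg). Within groups Grin2c varied with a coefficient of variation of 3.15%, below the 5.73% that counting error alone gives, whereas Grin1 at 8.04% and Grin2b at 8.24% varied more than their counting errors of 2.11% and 1.46%.

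Grin3a, which codes for the glycine-binding GluN3A subunit, showed the largest difference among the 6 members tested. It was counted 481, 319 and 464 times in the libraries labelled WAS against 315, 294 and 327 times in those labelled control. On the CPM scale, WAS replicates 1 and 3 at 47.8 and 46.5 stood apart from WAS replicate 2 at 34.5, which was close to the control levels of 29.99, 28.3 and 32.8. The groups did not overlap, with means of 42.9 ± 7.32 and 30.4 ± 2.25 CPM (SD, n = 3 each). The log2 fold change was 0.46 ± 0.14 (SE) with an interval from 0.16 to 0.76 (unadjusted p = 0.00602, adjusted p = 0.539, edgeR quasi-likelihood test, Benjamini-Hochberg). It did not reach a fold change of 1.5. Without WAS replicate 2 the log2 fold change was 0.60 (adjusted p = 0.0139, edgeR quasi-likelihood test, Benjamini-Hochberg) and met the 1.5-fold criterion. Over all alternatives the adjusted p ranged from 0.0139 to 0.9997. Without both WAS replicates 1 and 3, an alternative chosen after seeing the data, it was 0.14 ± 0.16 (SE), with WAS replicate 2 as the only library of its group and assumed to vary like the controls. Ppp3r2, which lies inside the Grin3a gene on the same strand, had 0 to 20 counts.

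Markers of brain regions differed between the same libraries as Grin3a. The 7 thalamus markers summed to 755, 308 and 638 CPM in WAS replicates 1, 2 and 3 and to 304, 280 and 302 CPM in the control replicates, with 7 of 7 log2 fold changes above 0. The 8 striatum markers summed to 153, 1976 and 376 CPM against 981, 1251 and 1344 CPM, with Drd2 at or under 3 counts in every library. Slc6a3, the dopamine transporter gene of midbrain neurons, had 107, 0 and 100 counts against 0, 3 and 3. It was picked from a list of 7 midbrain and hindbrain markers after its values were seen. Dbh of that list, at low counts, went the other way, with 0, 0 and 4 counts against 3, 3 and 8. WAS replicates 1 and 3 thus stood apart from the other 4 libraries in the thalamus and striatum sums and in Slc6a3 as in Grin3a, and the part of the region markers in the Grin3a value was not tested. The 6 hippocampus markers summed to 158, 122 and 149 CPM in WAS replicates 1, 2 and 3 and to 124, 84.8 and 106 CPM in the control replicates. All 6 of 6 log2 fold changes were above 0, and 1 of 6 met the 1.5-fold criterion, against 2.49% of all genes. Pan-neuronal markers lay between 6276 and 6563 CPM against 6683 and 7392 CPM, and astrocyte markers between 3849 and 4002 CPM against 3862 and 3984 CPM. Of the 7 astrocyte markers, 4 had log2 fold changes above and 3 below 0. At an unadjusted p under 0.05, 2 of the 7 were higher and 0 lower, against 3.85% and 3.40% of all genes. Olfactory bulb markers stayed between 9.25 and 11.6 CPM in all libraries, and the 7 cerebellum markers summed to 78.4, 71.5 and 74.8 CPM against 61.1, 48.8 and 91.4 CPM. Within the cerebellum list, Gabra6, which defines cerebellar granule cells, had at most 1 count in a library. Cbln1, with 170, 64 and 120 counts against 79, 30 and 66, and En2, with 29, 3 and 33 against 6, 0 and 2, were high in WAS replicates 1 and 3 and were the 2 of 6 tested markers of the list that met the 1.5-fold criterion, against 2.49% of all genes. The list had 4 log2 fold changes above and 2 below 0, with Zic1 at 0.025, Pcp2 at -0.092 and Car8 at -0.14. Choroid plexus markers ranged from 16.2 to 1239 CPM, with low and high libraries in both groups.

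**Figure D2:**
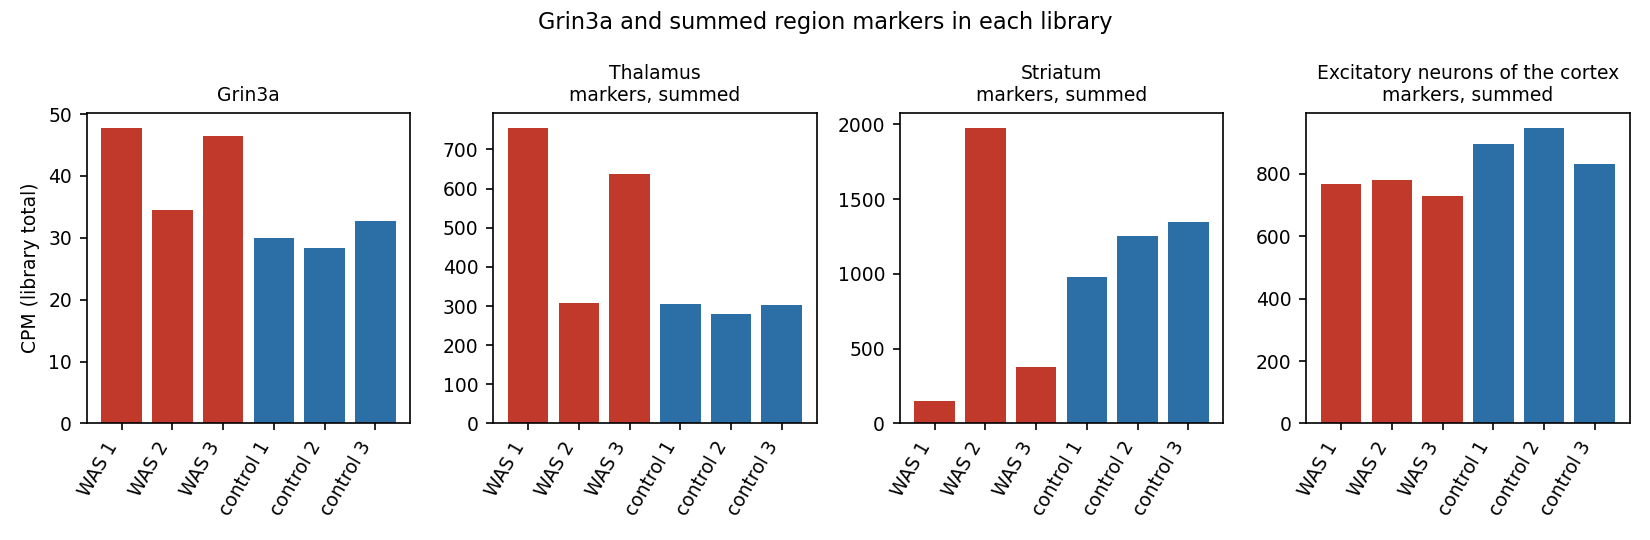
Level of Grin3a and summed levels of marker genes of thalamus, striatum and excitatory cortical neurons in CPM (linear axes from 0), with 1 bar for each of the 3 libraries labelled WAS (red) and the 3 labelled control (blue). WAS replicates 1 and 3 have the highest Grin3a level, the highest thalamus sums (755 and 638 CPM) and the lowest striatum sums (153 and 376 CPM).

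Grin3b, which codes for GluN3B, had 266, 201 and 242 counts in the libraries labelled WAS against 268, 261 and 219 in those labelled control. The group means of 24.1 ± 2.35 and 24.2 ± 1.96 CPM (SD, n = 3 each) overlapped, and the log2 fold change was -0.040 with an interval from -0.32 to 0.24. Leaving out WAS replicate 2 turned its sign, to 0.028. Tmem259 on the opposite strand shares 1059 exonic bases with Grin3b, between positions 79975634 and 79977190 of chromosome 10, and its counts were nearly those of Grin3b. It had 280, 210 and 258 counts in the libraries labelled WAS against 277, 264 and 236 in those labelled control, so the 2 genes differed by 3 to 17 counts in a library. Of 1409 pairs of genes with shared exonic bases on opposite strands, 46 (3.26%) had counts within 10% of each other in every library. Values printed for Grin3b may therefore hold reads of Tmem259, from which they cannot be told apart.

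**Figure D3:**
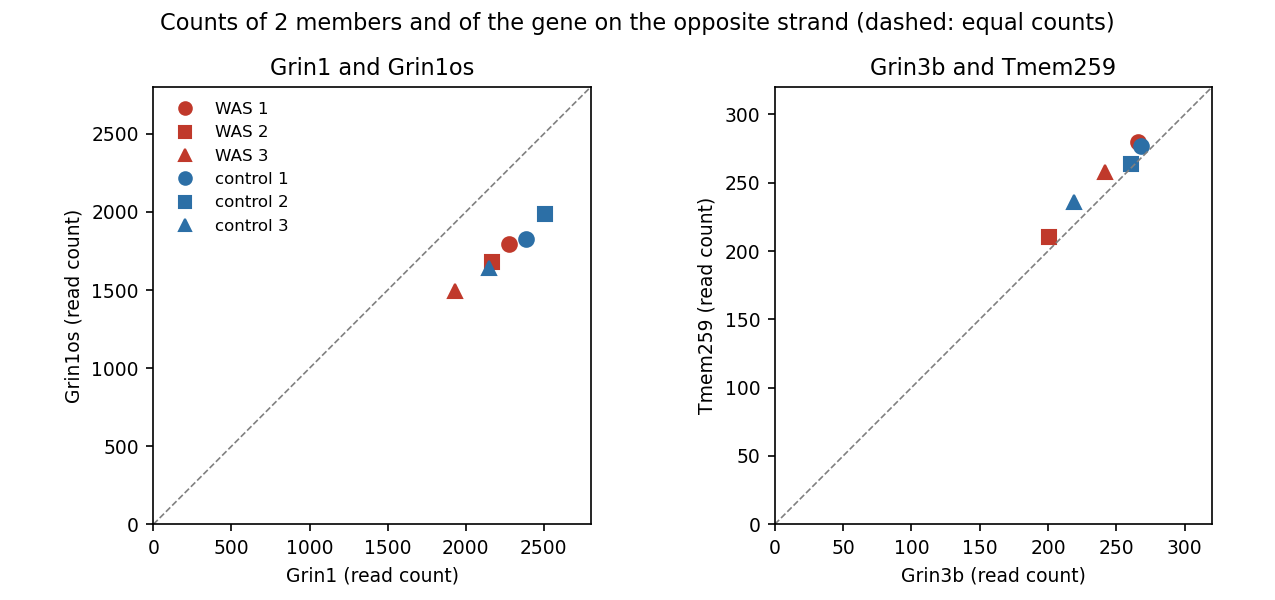
Read counts of Grin1 against its opposite-strand neighbour Grin1os and of Grin3b against Tmem259, with 1 point for each of the 6 libraries (red for labelled WAS, blue for labelled control, shapes for replicates 1, 2 and 3) and a dashed line of equal counts, on linear axes from 0. The Grin1os counts sit at 0.762 to 0.791 times those of Grin1, and the Tmem259 counts lie at 1.01 to 1.08 times those of Grin3b.

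Grin2d did not pass the filter on low counts, so 6 of the 7 members were tested. With edgeR's quasi-likelihood test and Benjamini-Hochberg adjustment, 0 of 6 reached an adjusted p under 0.05, against 0% of all 15239 genes tested. DESeq2 and limma likewise put 0 members past that threshold, with no adjusted p from DESeq2 for Grin2a. At an unadjusted p under 0.05, 1 of 6 members was called, Grin3a, where 7.24% of all genes tested were, 3.85% higher and 3.40% lower under the label WAS. The criteria the study used, a fold change of at least 1.5 together with an unadjusted p under 0.05 here, were met by 0 of 6 members and by 2.49% of all genes, 1.82% higher and 0.676% lower. The 2 members whose groups did not overlap on the CPM scale, Grin3a higher and Grin2b lower in the libraries labelled WAS, compare with 12.2% of all genes without overlap, made up of 8.42% with higher values and 3.76% with lower values. Log2 fold changes above 0 were found for 2 of 6 members, against 50.2% of all genes, and the median over the tested members was -0.043 against 0.00088.

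**Figure D4:**
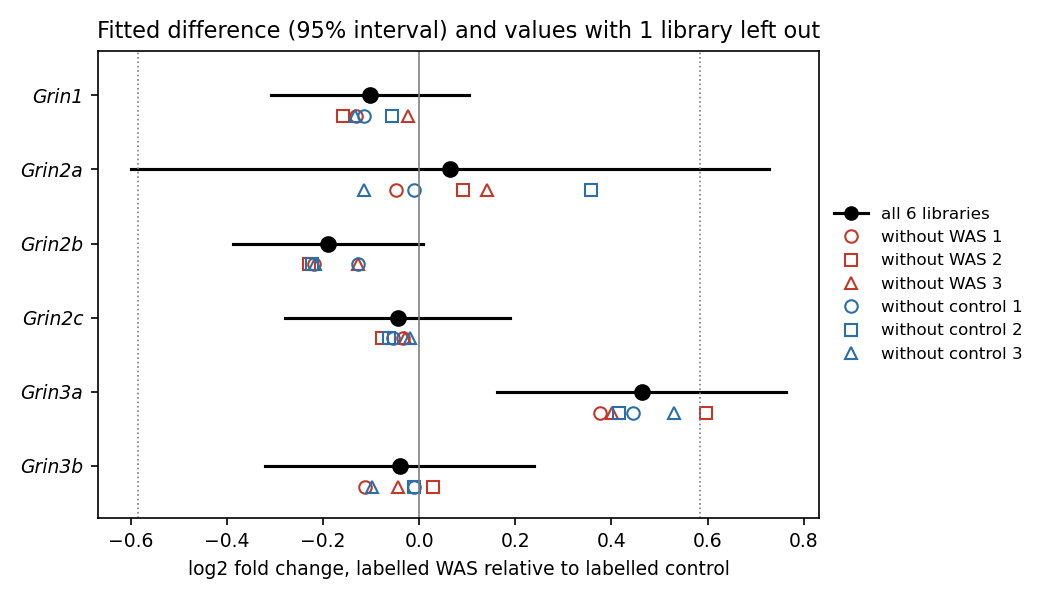
Log2 fold change of the 6 members tested, labelled WAS relative to labelled control, with all 6 libraries (black point with its 95% interval from edgeR) and with 1 library left out at a time (open symbols, red for a library labelled WAS and blue for a control). Dotted lines mark a fold change of 1.5, which among the points only Grin3a without WAS replicate 2 (0.60) passes, while the intervals of Grin2a and Grin3a reach beyond them.

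The make-up of the receptor transcripts was then described as shares of the 7 members' summed counts, which ran from 6983 to 7973 counts under the label WAS and from 7690 to 8992 under the label control. Grin1 took 28.6%, 29.7% and 27.7% of this sum in the libraries labelled WAS against 26.6%, 30.4% and 28.0% in those labelled control. The GluN3 genes took 9.37% (95% Wilson interval 8.75% to 10.03%), 7.11% (6.54% to 7.72%) and 10.1% (9.43% to 10.8%) in WAS replicates 1, 2 and 3. In the control replicates they took 6.48% (5.99% to 7.01%), 6.72% (6.20% to 7.28%) and 7.10% (6.55% to 7.70%). The groups did not overlap, but WAS replicate 2 at 7.108% was only just above control replicate 3 at 7.100%, and its interval overlapped those of the controls. These intervals cover counting error only.

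Among the GluN2 genes, Grin2b held 92.36% to 92.96% of the counts in the libraries labelled WAS and 93.02% to 94.05% in those labelled control, without overlap but by a margin smaller than the counting interval of a library. The ratio of Grin2a to Grin2b, often read as a mark of receptor maturation, was -6.73 ± 0.14 (SD, n = 3) on the log2 scale in the libraries labelled WAS and -7.03 ± 0.50 (SD, n = 3) in those labelled control. The difference of 0.30 was within the spread of the control libraries, whose values ran from -7.38 to -6.46. There were 2.13 to 2.25 GluN2 counts per Grin1 count in the libraries labelled WAS and 2.07 to 2.52 in those labelled control, and these ranges overlapped. Sums over members include the Grin1 and Grin3b counts, which opposite-strand genes may share. Shares and ratios between members also depend on which transcript ends were counted, which is unknown, so they may not give the make-up of the transcripts.

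Genes that act with the receptor were taken from 5 lists covering scaffolds, kinases and phosphatases, trafficking proteins, co-agonist supply and downstream signalling. Of 59 such genes in the tables, 57 were tested, and 13 (22.8%) had an unadjusted p under 0.05, 4 higher and 9 lower under the label WAS, where 7.24% of all genes tested were called, 3.85% higher and 3.40% lower. The lists were chosen with earlier results of these data known, so these shares are a description only. The 1.5-fold criterion was met by 1 of 57, against 2.49% of all genes, and 0 passed an adjusted p of 0.05 with edgeR. Their median log2 fold change was -0.060, with 21 above and 36 below 0. The most abundant genes of the lists were Dlgap1, Dlg4, Camk2a, Ppp3ca, Nsf, Pacsin1, Srr, Psat1, Kalrn and Rasgrf1, and they are named for that, as Nos1 is for meeting the 1.5-fold criterion. The other partner genes named were chosen after their values were seen.

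The scaffolds, which bind the GluN2 tail or tie it to the postsynaptic density, had the lowest median, at -0.17, with 12 of 13 log2 fold changes below 0. Dlgap1, a Dlg-binding scaffold and the most abundant, measured 1328 ± 20.98 CPM in the libraries labelled WAS against 1433 ± 118 CPM in those labelled control (log2 fold change -0.15). Dlg4, which codes for PSD-95, measured 381 ± 45.4 and 399 ± 25.9 CPM (-0.10, and -0.16 to -0.0073 with 1 library left out). An unadjusted p under 0.05 was found for 4 of 13 scaffolds, all lower in the libraries labelled WAS, against 3.40% lower among all genes. These were Homer1 at -0.42, Dlgap3 at -0.33, Dlg1 at -0.29 and Dlgap2 at -0.28. Homer1, which links the Shank scaffolds to metabotropic glutamate receptors, was the only scaffold whose groups did not overlap, with 1431, 2022 and 1697 counts against 2415, 2532 and 2183, where 3.76% of all genes did not overlap with lower values. The gap was small, since WAS replicate 2 (2022 of 9248520 counts) lay only just under control replicate 3 (2183 of 9977945 counts) on the CPM scale. The summed pan-neuronal and excitatory cortical markers given above were lower under the label WAS too, with 5 of 7 and 7 of 7 log2 fold changes below 0 and medians of -0.055 and -0.27, and their part in the scaffold values was not tested.

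Kinases and phosphatases that act on the receptor gave a median log2 fold change of -0.093, with 9 of 14 below 0. At an unadjusted p under 0.05, 3 of 14 were lower and 1 higher under the label WAS, against 3.40% and 3.85% of all genes. Groups did not overlap for 3 lower and 1 higher of the 14, against 3.76% and 8.42% of all genes. Camk2a, the alpha subunit of the calcium/calmodulin kinase that docks on GluN2B, had 22543, 18472 and 18510 counts in the libraries labelled WAS against 26078, 25479 and 25230 in those labelled control, with no overlap on the CPM scale. Its log2 fold change was -0.33 ± 0.083 (SE, adjusted p = 0.477, edgeR quasi-likelihood test, Benjamini-Hochberg). Camk2g at -0.28 and Camk2b at -0.22 were lower as well, both without overlap and with unadjusted p-values of 0.00773 and 0.0289. The summed excitatory cortical markers were lower in these libraries, and their part in these kinase values was not tested. Camk2d went the other way, at 742, 575 and 817 counts against 416, 477 and 597, likewise with no overlap on the CPM scale. Its log2 fold change was 0.54 (unadjusted p = 0.00469, edgeR quasi-likelihood test). Ppp3ca, a catalytic subunit of calcineurin, measured 4611 ± 1043 against 5220 ± 326 CPM, and its log2 fold change of -0.22 became -0.11 without WAS replicate 1, -0.14 without WAS replicate 3, -0.028 with limma on quantile-normalized values and -0.42 without WAS replicate 2 (for the last, adjusted p = 0.00569, range over the alternatives 0.00569 to 0.9997, edgeR quasi-likelihood test, Benjamini-Hochberg). The Ppp3ca counts were 39397, 53731 and 41020 in WAS replicates 1, 2 and 3. Summed striatum markers were low in WAS replicates 1 and 3 too, at 153 and 376 CPM, and their part in the Ppp3ca value was not tested.

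Trafficking and auxiliary proteins had 5 of 11 log2 fold changes above 0 and a median of -0.033. Nsf, the ATPase of membrane fusion, measured 643 ± 78.1 against 605 ± 29.8 CPM (log2 fold change 0.053, and -0.018 to 0.15 with 1 library left out). Pacsin1, an endocytosis adaptor, measured 608 ± 4.91 against 655 ± 79.7 CPM (-0.14, and -0.051 without control replicate 1). An unadjusted p under 0.05 was found for 1 of the 11, Lin7b at -0.30, against 7.24% of all genes. The co-agonist genes were split evenly, with 5 of 10 above 0, and Slc6a5, a glycine transporter of spinal cord and brainstem neurons, had 0 counts in all libraries. Srr, the enzyme that makes D-serine, measured 116 ± 13.6 against 116 ± 4.41 CPM, and Psat1, an enzyme of serine synthesis, 60.3 ± 1.75 against 59.4 ± 0.865 CPM. Slc6a9, which codes for the glial glycine transporter GlyT1, had 569, 285 and 452 counts against 376, 291 and 315, and like Grin3a was high in WAS replicates 1 and 3 but not in replicate 2 (log2 fold change 0.44, unadjusted p = 0.0379). The astrocyte markers had 4 of 7 log2 fold changes above 0 and 3 below, and their part in the Slc6a9 value was not tested.

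Downstream of the receptor, Nos1, which codes for the nitric oxide synthase tethered to the receptor by PSD-95, was the gene that met the 1.5-fold criterion. It had 516, 363 and 540 counts in the libraries labelled WAS against 312, 327 and 299 in those labelled control, and WAS replicates 1 and 3 were again the high ones, a direction that rests on the labels. The log2 fold change was 0.63 ± 0.13 (SE, unadjusted p = 0.000452). The criterion was no longer met without WAS replicate 1, at 0.58, or without WAS replicate 3, at 0.54, and was met in the other 11 of 13 alternatives. Its adjusted p ranged from 0.00189 to 0.9997 over the alternatives and was under 0.05 with DESeq2, at 0.0232, and without WAS replicate 2, at 0.00189. Tiam1, a Rac exchange factor, had 979, 931 and 1000 counts against 833, 846 and 792, without overlap (0.27, unadjusted p = 0.00557). Kalrn, which acts in dendritic spines, was lower at 441 ± 50.9 against 531 ± 73.6 CPM (-0.30, unadjusted p = 0.0222). Rasgrf1, a calcium-regulated Ras exchange factor, measured 321 ± 53.5 against 267 ± 13.5 CPM (0.23, unadjusted p = 0.0655), and its log2 fold change was 0.10 without WAS replicate 1.

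**Figure D5:**
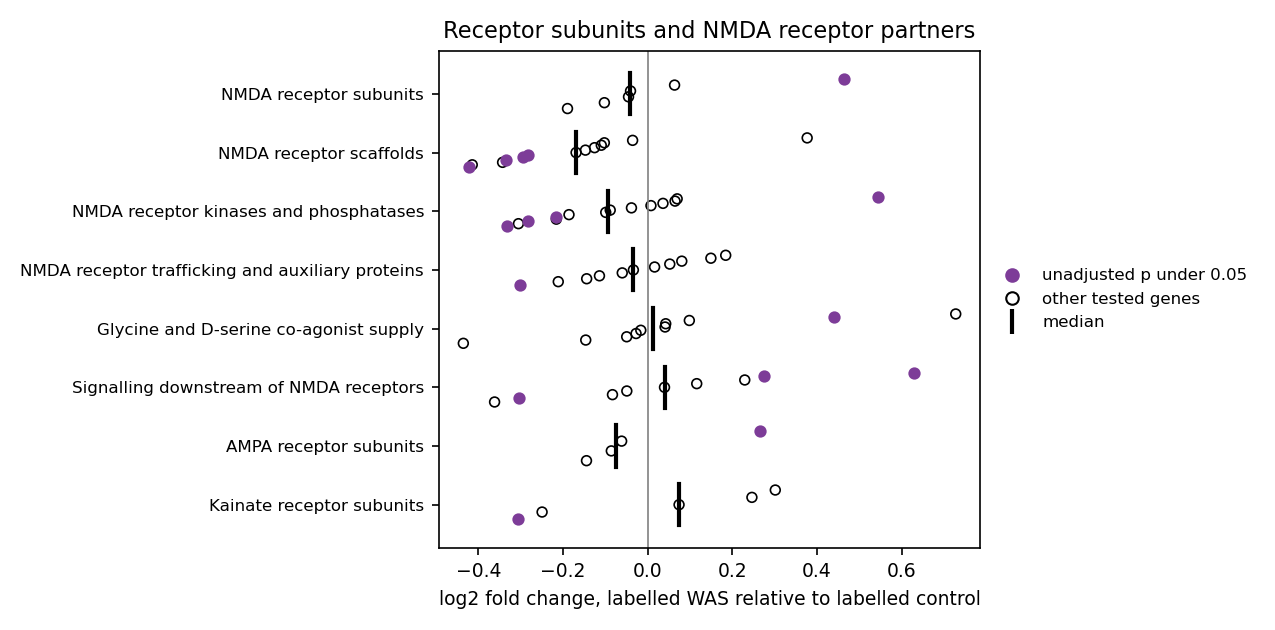
Log2 fold change, labelled WAS relative to labelled control, of each tested gene in the NMDA receptor subunit list, the 5 partner lists and the AMPA and kainate receptor subunits (points spread vertically by rank), with filled points for an unadjusted p under 0.05 from edgeR and a black bar for the median of a list. The scaffold median lies lowest at -0.17, and the filled subunit point is Grin3a at 0.46.

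The other ionotropic glutamate receptors were set beside the NMDA receptor genes. All 4 AMPA receptor genes were tested, with 1 above and 3 below 0. Gria1 measured 635 ± 109 CPM in the libraries labelled WAS and 514 ± 48.9 CPM in those labelled control (log2 fold change 0.27, unadjusted p = 0.0494), with overlapping groups and a log2 fold change of 0.12 without WAS replicate 1, and Gria2 measured 809 ± 57.5 against 838 ± 70.4 CPM (-0.086, and -0.14 to -0.029 with 1 library left out). Of the 5 kainate receptor genes, 3 were above 0. Grik5 measured 49.1 ± 8.45 against 59.1 ± 5.97 CPM (-0.31, unadjusted p = 0.0417) and Grik2 28.3 ± 2.03 against 26.2 ± 1.65 CPM (0.074, and 0.024 to 0.13 with 1 library left out). Among the 9 genes, an unadjusted p under 0.05 was found for 2 (7.24% of all genes), 0 met the 1.5-fold criterion (2.49%) and 0 passed an adjusted p of 0.05 with edgeR (0%).

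For each member with at least 50 counts per library on average, the genes whose log2(CPM + 1) followed it most closely over the 6 libraries were found by Pearson correlation, as a description over points that share library totals. Grin3a was followed by Mtfp1 at 0.998, Dalrd3 at 0.996 and Mmd2 at 0.996, all of them high in WAS replicates 1 and 3. Grin2b was followed by Ica1l at 0.994, Xpnpep1 at 0.989 and Cdhr1 at 0.988. Grin1 was followed by Gm1653 at 0.989, Fam35a at 0.989 and its own opposite-strand neighbour Grin1os at 0.988. Grin2c was followed by Flrt3 at 0.999, Chst15 at 0.990 and Dnajc17 at 0.986, and Grin3b by Vsnl1 at 0.998, Rep15 at 0.991 and C230091D08Rik at 0.988. With 6 libraries and 15239 genes, the closest genes are near 1 by selection.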

How the data were processed

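Forebrain RNA of 3 mice labelled WAS and 3 labelled control was analysed, with 1 library per mouse. The deposited values are raw read counts per gene symbol. The authors made them from single-end QuantSeq reads of 75 bases with Bowtie2 and coverage in Bedtools, counting unique and multiple alignments. The submitters' processing notes name mm10. The annotation and the strand setting are not given in the sources used here. The deposited counts were not yet quantile-normalized.

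Counts were scaled by TMM and tested by the two-sided quasi-likelihood test of edgeR 4.0.16 (R 4.3.3) for 15239 genes, those at 2 or above for log2(count + 1) averaged over libraries after quantile normalization, with group as the only term and Benjamini-Hochberg adjustment over all genes tested. TMM factors lay between 0.976 and 1.01. The test was checked on simulated data. CPM values use library totals. With 3 libraries against 3, no permutation test of a single value was run. Standard errors were derived from the F values, and up to 3 counts in every library of a group was taken as the floor. DESeq2 1.42.0, limma 3.58.1, other scalings and filters, a replicate block and each library left out were the alternatives. Coordinates, transcript ends and sequences come from GENCODE M21 on GRCm38, the build of mm10. Protein sequences were not used here.

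The members and lists were chosen with earlier results of these data known. Named are all 7 members, from each partner and receptor list the 2 most abundant tested genes and those past the 1.5-fold criterion, and the 3 genes closest to each member by correlation. Other genes named were chosen after their values were seen.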

Additional observations from a re-analysis of the deposited data

How the results depend on the processing

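Across 13 alternatives, 73 of 78 log2 fold changes of the members kept their direction and their side of adjusted p 0.05, 4 turned sign and 1 came to pass the threshold, while DESeq2 gave no adjusted p for Grin2a. Grin2a turned to -0.049 without WAS replicate 1, -0.0097 without control replicate 1 and -0.11 without control replicate 3, in a range from -0.11 to 0.36 with 1 library left out, and Grin3b turned to 0.028 without WAS replicate 2, in a range from -0.11 to 0.028 likewise. Grin3a ranged from 0.38 to 0.60 with 1 library left out and passed without WAS replicate 2 (0.60, adjusted p = 0.0139, edgeR quasi-likelihood test), with an adjusted p between 0.0139 and 0.9997 over all alternatives. With 1 library left out, the range was -0.16 to -0.024 for Grin1, -0.23 to -0.13 for Grin2b, -0.077 to -0.019 for Grin2c (-0.0079 with scaling by library total) and 0.12 to 0.58 for the log2 ratio of Grin2a to Grin2b. Grin2c turned to 0.013 without WAS replicates 1 and 3. Of 195 values of the 15 partner and receptor genes named for abundance or the 1.5-fold criterion, 4 turned sign (Nsf to -0.018 and Srr to 0.044 without WAS replicate 3, Psat1 to 0.021 with scaling by library total and to 0.0046 without WAS replicate 2, with ranges of -0.018 to 0.15 for Nsf, -0.11 to 0.044 for Srr and -0.037 to 0.0046 for Psat1 when 1 library was left out) and 3 came to pass (Nos1 with DESeq2 and, with Ppp3ca, without WAS replicate 2). For genes named after their values were seen, the alternatives are not given. The causes were not tested.

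Over all genes, 0 passed adjusted p 0.05, where 31 did with DESeq2, 491 without WAS replicate 2 (range 0 to 491 with 1 library left out), 1 without WAS replicates 1 and 3, and 1104 had an unadjusted p under 0.05. The 1.5-fold criterion was met by 380 genes, 277 of them higher, and by 264 to 825 with 1 library left out, the most without WAS replicate 2. With limma 220 of 413 were higher, and with scaling by library total 320 of 396. With the replicate number as a block, 49 genes passed adjusted p 0.05, none of them a member. The members' log2 fold changes were then -0.11 for Grin1, 0.096 for Grin2a, -0.19 for Grin2b, -0.045 for Grin2c, 0.45 for Grin3a and -0.041 for Grin3b. Same-numbered libraries correlated at 0.0662, 0.0846 and 0.0873, each library best with its own number, but no label pairs them. Grin2a rests on 28 to 55 counts per library and Grin2d on at most 1, which limits both.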
